A study of Mus musculus with 193 samples.

Results

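The 10 genes described here encode proteins of the nuclear lamina and the envelope around it: the lamins Lmna, Lmnb1 and Lmnb2, the lamin B receptor Lbr, the LEM-domain proteins Tmpo and Emd, their DNA-binding partner Banf1, and the bridge proteins Sun1, Sun2 and Syne2. They were chosen by name, with earlier results of the same data known, from the 19642 rows of a table of single cells, and all 10 were found there. Because Lmna had already stood out at the later age when the genes were picked, the values below are given as a description without a test.

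The cells were GFP-positive sorts from mouse testes carrying the Id4-eGFP reporter, which marks undifferentiated male germ cells. At postnatal day 3 (P3) 71 cells were wild type (WT) and 69 had a label of Rhox10 knockout (KO), and 53 further WT cells were from postnatal day 7 (P7); all 3 groups carry the reporter and differ in no other labelled treatment. Titles divide the cells into 7 lettered sets: A with 16 and B with 55 WT P3 cells, A with 21, B with 12 and C with 36 labelled KO cells, and A with 12 and B with 41 WT P7 cells. The labels name neither animals nor litters and do not say what the letters mean. Each group is therefore 1 sample, no p-value is given anywhere, and the sets show only how far a value repeats.

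The lamina is a meshwork of intermediate-filament proteins under the inner nuclear membrane. B-type lamins stay farnesylated and membrane-bound, while A-type lamins, made from Lmna by alternative splicing, stiffen the nucleus and are typically scarce in early embryonic cells compared with differentiated tissue. Lbr and the LEM-domain proteins tether chromatin to the membrane, Banf1 (barrier-to-autointegration factor) links LEM proteins to DNA and helps to reseal the envelope after mitosis, and SUN and nesprin proteins form the LINC bridge from the lamina to the cytoskeleton. The table does not tell lamin A from lamin C, or one splice form of Tmpo (LAP2) from another, since it has 1 row per gene.

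Values are RPM, each cell's reads scaled to a total of 1000000, and a level is the mean of log2(RPM + 1) over the cells of a set. A group's level is the unweighted mean of its sets, and a difference between groups is given with its range over all pairs of sets, 6 for labelled KO minus WT P3 and 4 for WT P7 minus WT P3. Both comparisons use the same WT P3 cells. A read count per cell could be recovered from the deposited values; it ran from 251530 to 10663507 reads in all and from 25424 to 1373776 on genes, and median genes detected per set lay between 5913 and 7396. Ddx4 and Dazl, which mark germ cells, had reads in every cell. Summed over a list of 10 germ cell genes that includes both, the lowest cell of labelled KO set A had 17.021 RPM. The lowest cell of any other set had 557.265 RPM, in WT P3 set A. Reads of Ddx4 and Dazl alone therefore do not show that every cell of labelled KO set A was a germ cell. Rhox10 had levels of 1.78 and 1.49 in the WT P3 sets, and of 2.48, 2.62 and 0.83 in labelled KO sets A, B and C, so it was not lower in KO sets A and B and the term "labelled KO" is kept throughout. Id4 had levels of 3.61 in WT P3, 1.93 in labelled KO and 2.29 in WT P7 cells. Labelled KO set A stood apart, with a mean G2/M gene level of 1.56 against 2.66 to 4.92 in the other sets and more RNA of somatic testis cells. Labelled KO differences of Lmnb1, Lmnb2, Lbr, Tmpo, Emd, Banf1, Sun2 and Syne2 are given with and without it. Those of Lmna, Sun1 and the wider lists are given only with it.

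Promoter sequence is shown for Lbr and Tmpo, 2 of the abundant genes of the group, and for Lmna, the gene that differed most with age. Each line is the 80 bases upstream of a RefSeq start site that overlap no annotated exon, read 5′ to 3′ on the gene's minus strand from GRCm38.p6. Capitals mark matches, in either orientation, to CCAAT (the NF-Y box), TTTGAA (a CHR element), TTCGAA (another CHR form), GGCGGGAA (an E2F site) or GGGCGG (an SP1 box).
Lbr, chr1:181842412-181842491, 90 to 11 bases before the start: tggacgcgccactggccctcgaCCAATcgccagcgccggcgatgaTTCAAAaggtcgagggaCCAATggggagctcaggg
Tmpo, chr10:91171630-91171709, 90 to 11 bases before the start: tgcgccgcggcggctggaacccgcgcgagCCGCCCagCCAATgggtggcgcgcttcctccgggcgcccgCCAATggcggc
Lmna, chr3:88503393-88503472, 120 to 41 bases before the start: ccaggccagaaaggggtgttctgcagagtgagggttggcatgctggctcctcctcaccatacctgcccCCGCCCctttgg
The Lbr stretch held CCAAT beginning 68 and 28 bases before the start, with TTCAAA, the reverse complement of TTTGAA, between them at 45. The Tmpo stretch held CCAAT at 53 and 21 bases before the start and a reverse-complement GGGCGG at 61. The Lmna stretch held a reverse-complement GGGCGG at 52. RefSeq windows of 250 bases before to 50 after a start site were at hand for 9 of the 10 genes (14 windows); Lmnb1 had none. Among these 14 windows CCAAT was in 8, GGGCGG in 10, TTTGAA in 3, GGCGGGAA in 2 and TTCGAA in 0. A second Tmpo window, not printed, held TTTGAA at 28 bases before its own start and a reverse-complement GGCGGGAA at 83. A second Lmna window held CCAAT at 131. Over all 32851 windows of the table, the shares were 37.4% for CCAAT, 35.7% for GGGCGG, 17.9% for TTTGAA, 2.19% for GGCGGGAA and 1.56% for TTCGAA, and 6.95% held both CCAAT and TTTGAA, as the Lbr and Sun2 windows did. These matches are letters in a window and not measured binding.

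Lbr and Banf1 were the most abundant envelope RNAs once transcript length was taken into account. Divided by the length of all exons of the gene, the mean over the 7 sets was 31.1 RPM per kb for Lbr and 30.2 for Banf1. Their ranges over sets, 18.8 to 46.9 and 17.5 to 43.5, overlapped almost fully, so these neighbours were not separated. Tmpo followed with 5.47 RPM per kb, then Sun1 with 3.21, Lmna with 2.59, Emd with 1.42 and Syne2, whose exons add up to 21729 bases, with 1.08. The B-type lamins came near the bottom at 0.66 for Lmnb1 and 0.53 for Lmnb2, and Sun2 was last at 0.17. From Tmpo down to Sun2, each gene's range over sets overlapped that of the next. Lmna spanned the widest range of the lamins, from 0.78 to 8.03 RPM per kb. With the longest basic transcript in place of all exons, Banf1 came first at 35.9 RPM per kb. Dividing by length assumes that reads spread evenly over the exons, which was not checked and matters most for a gene as long as Syne2.

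**Figure D1:**
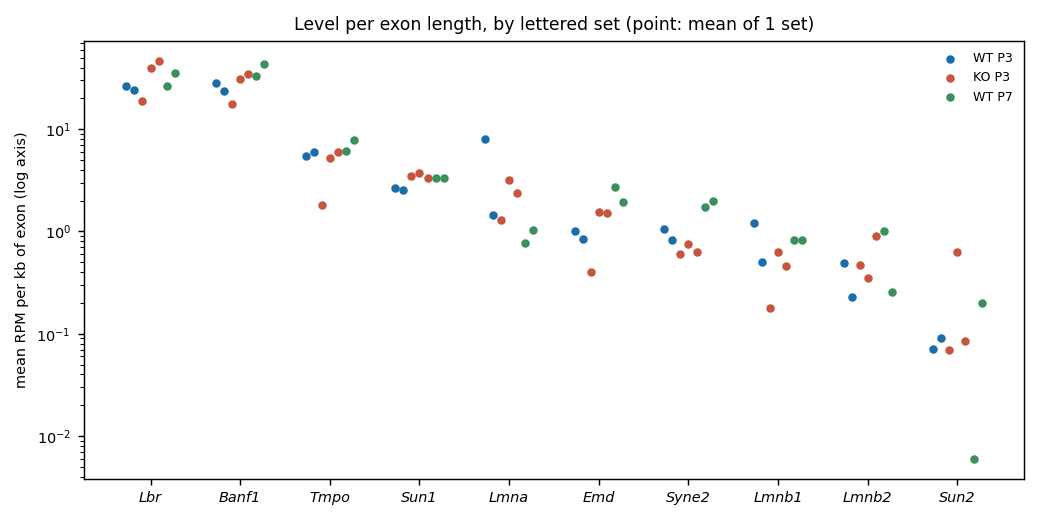
Mean RPM per kb of exon (log axis) of the 10 genes in each lettered set; each point is the mean of 1 set, coloured by group. Lbr and Banf1 lie between 17.5 and 46.9 in every set, and the Lmna points run from 0.78 in a WT P7 set to 8.03 in a WT P3 set.

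Lmna, which encodes lamins A and C, lies on chromosome 3 (88480147 to 88509956, minus strand, GRCm38). Its RNA ran from 0 RPM through a median of 10.6 to 119.9 RPM in the cells of WT P3 set A, and from 0 through 3.58 to 16.9 in set B. In WT P7 cells it ran from 0 through a median of 0 to 13.4 RPM in set A and from 0 through 0.717 to 41.8 in set B. Both P7 medians were thus below 1 RPM while both P3 medians were above it, although single cells of the 2 ages overlapped. Cells labelled KO had medians above 1 RPM too, with 0, 2.42 and 16.4 RPM as the lowest, median and highest value in set A, 2.83, 9.09 and 33.1 in set B, and 0, 4.79 and 46.96 in set C.

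The level of Lmna was 3.80 and 2.21 in the WT P3 sets, 1.77, 3.23 and 2.57 in the labelled KO sets, and 1.00 and 1.24 in the WT P7 sets. Both P7 sets were lower than all 5 P3 sets. WT P7 minus WT P3 was -1.88, with a range of -2.80 to -0.97 over the 4 pairs, and 12 of the 4895 genes whose mean level reached 2 had a more negative difference. Mean RPM was 3.05 against 15.9, which is 5.20-fold lower at P7. Lmna's mean level over both ages, 2.06, was just above that limit of 2. It passed only through the WT P3 cells, with a level of 3.01 against 1.12 at P7. Its place among these genes is therefore no support for the difference. WT P3 set A carried a large part of the size: 1 of its cells held 27.9% of the set's Lmna, and without set A the difference was -1.09. Labelled KO minus WT P3 was -0.48 with pairs on both sides of 0 (-2.03 to 1.02), and it became 0.31 without WT P3 set A and -1.28 without WT P3 set B. Labelled KO set A had the lowest level of the 5 P3 sets, and the difference without it is not given.

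The share of cells with Lmna above 1 RPM does not weigh the highest cells. It was 85.9% of WT P3 cells (61 of 71; exact Clopper-Pearson 95% interval 75.6 to 93.0%), 81.2% of labelled KO cells (56 of 69; 69.9 to 89.6%) and 43.4% of WT P7 cells (23 of 53; 29.8 to 57.7%). These intervals cover counting error only. By set the shares were 87.5% and 85.5% at P3, and 33.3% and 46.3% at P7. Median reads per cell were 4425190 in WT P3 and 3299780 in WT P7 cells, and after thinning every cell to 1000000 reads (5 WT P3 cells were shallower and left out) the difference was -1.97. Thinning set the total reads equal, not the reads on genes, which still differed between cells.

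The summed markers of other testis cells had lower medians at P7. Summed over the Sertoli, myoid and stromal, Leydig, endothelial and leukocyte lists, they ran from 0.904 through a median of 24.6 to 71.2 RPM in WT P3 set A and from 0 through 12.4 to 622.7 in set B. The P7 cells had 0, 3.56 and 87.9 RPM in set A and 0, 7.46 and 63.5 in set B. All 10 Sertoli markers, Sox9 and Wt1 among them, were at 0 in every cell of WT P7 set A, and 5 of the 10 were in set B. The Leydig list went the other way: Star, its 1 measured gene, named after its values were seen, had means of 1.19 and 1.01 RPM in the WT P3 sets and 3.89 and 2.70 at P7. Of the 27 cells above 50 RPM, 13 and 1 were in labelled KO sets A and C, outside this comparison. WT P3 sets A and B held 3 and 7, and WT P7 sets A and B held 1 and 2. Leaving them out gave an Lmna difference of -1.76 (-2.57 to -0.95), against -1.88 with all cells. The cut leaves cells with lower marker sums in. Within sets, Lmna correlated with the somatic markers by a mean Pearson r of 0.12, positive in 6 of 7 sets. The part of somatic RNA in the Lmna difference was not tested. Immediate early genes, which respond fast to stimulation and to tissue digestion, had mean levels of 2.03 and 1.94 in the WT P3 sets, 1.96 to 2.37 in the labelled KO sets, and 1.39 and 1.53 at P7. Within sets, Lmna correlated with them by a mean Pearson r of 0.20, positive in 5 of 7 sets; their part in the Lmna difference was not tested.

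Neither B-type lamin was lower at P7 in all pairs of sets. Lmnb1 (chromosome 18) had levels of 1.38 and 0.88 in the WT P3 sets, 0.42, 1.01 and 0.93 in the labelled KO sets, and 0.86 and 1.12 at P7. Lmnb2 (chromosome 10, 80901203 to 80918245, minus strand) had levels of 1.04 and 0.58, then 0.72, 0.72 and 1.36, then 1.38 and 0.66 in the same order. For both genes the sets of 1 group differed by as much as the groups. WT P7 minus WT P3 was -0.14 (-0.53 to 0.25) for Lmnb1 and 0.21 (-0.38 to 0.80) for Lmnb2, and labelled KO minus WT P3 was -0.34 (-0.96 to 0.13) and 0.13 (-0.32 to 0.78). Without KO set A these became -0.16 (-0.45 to 0.13) and 0.23 (-0.32 to 0.78). Few reads stood behind these values: Lmnb1 was above 1 RPM in 36.6% of WT P3, 31.9% of labelled KO and 37.7% of WT P7 cells, and Lmnb2 in 29.6%, 39.1% and 34%. No order of the groups was detectable at this depth.

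**Figure D2:**
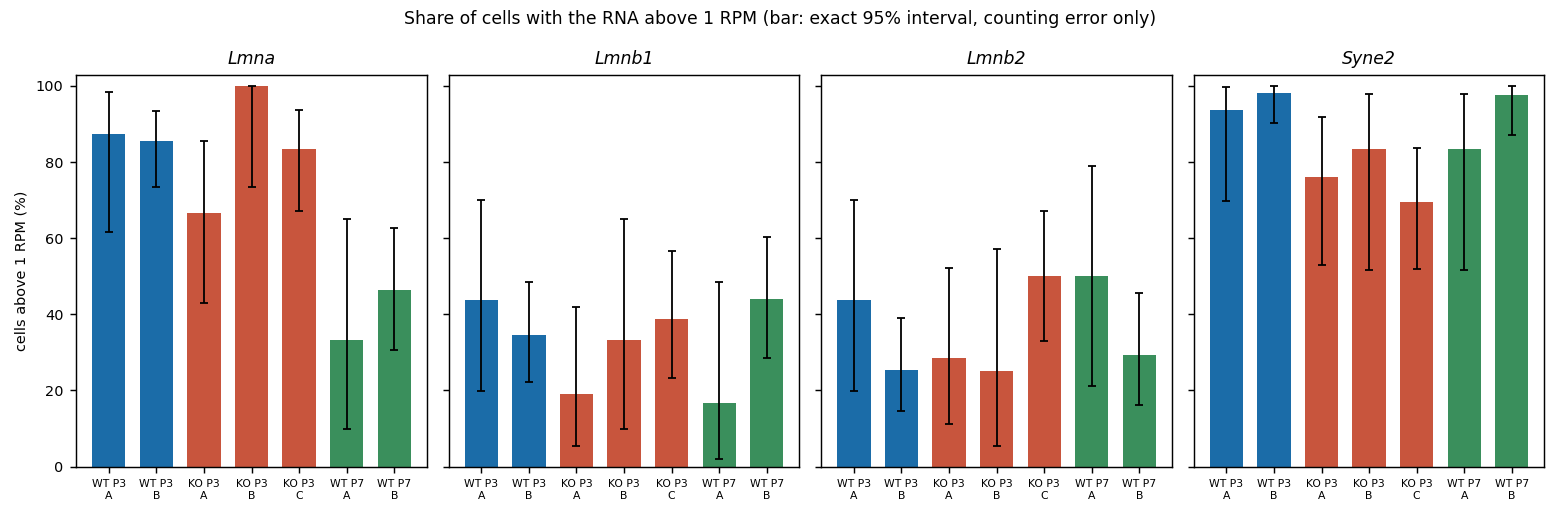
Percentage of cells above 1 RPM for the 3 lamins and Syne2 in each lettered set, with exact 95% intervals for counting error. Lmna is at 85.5% or more in the WT P3 sets and at 46.3% or less in the WT P7 sets, while the Lmnb1 and Lmnb2 bars overlap in their intervals across all sets.

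Within a cell, the share of Lmna among the reads of the 3 lamins does not depend on how the cell was scaled. Averaged over cells it was 66.4% and 66.6% in the WT P3 sets, 68.0%, 76.4% and 59.4% in the labelled KO sets, and 32.5% and 43.1% in the WT P7 sets, so both P7 sets were below all P3 sets. From summed values the shares were 83.3% and 67.8%, then 64.6%, 77.2% and 62.0%, then 29.2% and 51.1%, in the same order of sets. Cells with B-type but no Lmna reads numbered 2 of 71 in WT P3, 4 of 69 in labelled KO and 16 of 53 in WT P7. Another 6 WT P7 cells lacked reads of all 3 lamins (53 cells, 47 with any). The shares compare sets and not the lamins with each other, since the genes differ in length.

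Lbr, the lamin B receptor, is an inner membrane protein with a sterol reductase domain that holds peripheral heterochromatin in place; the gene is on chromosome 1 (181815335 to 181843046, minus strand). It was above 1 RPM in every cell. Its lowest, median and highest values were 21, 84.2 and 278.4 RPM in WT P3 set A, 26.6, 80.2 and 175.1 in WT P3 set B, 30.7, 83.9 and 221 in WT P7 set A, and 29.9, 114.0 and 304.5 in WT P7 set B. Labelled KO cells had medians of 48.7, 120.1 and 170.2 RPM in sets A, B and C. Sets B and C labelled KO thus had the highest medians of all, and set A the lowest. Labelled KO minus WT P3 was 0.37 (-0.63 to 0.96); without KO set A it was 0.86 (0.76 to 0.96), without KO set B 0.16 and without KO set C 0.09. WT P7 minus WT P3 was 0.29 (0.04 to 0.55), and its sign turned to -0.13 when cells were rescaled to stably detected genes.

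Tmpo, which encodes the LAP2 proteins, lies on chromosome 10 (91147571 to 91181315, minus strand). Its lowest, median and highest values were 0, 30.4 and 142.7 RPM in WT P3 set A, 4.60, 32 and 124.4 in WT P3 set B, 3.45, 23.3 and 134.1 in WT P7 set A, and 13.7, 39.6 and 169.2 in WT P7 set B. In labelled KO cells they were 0, 5.30 and 72.2 RPM in set A, 1.62, 33.5 and 64.1 in set B, and 7.35, 27.8 and 109.9 in set C. Labelled KO set A was the only set with a median below 20 RPM, and 7 of its 21 cells were at or below 1 RPM (14 above). Labelled KO minus WT P3 was -0.55 (-2.61 to 0.78) and turned to 0.27 (-0.23 to 0.78) without KO set A. WT P7 minus WT P3 was 0.49 (-0.27 to 1.26).

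KO set A was the lowest set for 5 of the 10 genes. Lmnb1, Lbr, Tmpo, Emd and Banf1 had their lowest set level there, at 0.42, 5.67, 2.39, 0.78 and 4.64. The lists of nuclear pore and nuclear transport genes described below had their lowest mean level there too, at 3.39 and 3.23, while the LINC complex list did not. How many of all genes were lowest in KO set A was not counted, so the 5 are not read as a trait of the envelope genes. The same set had a mean S phase gene level of 2.65 against 3.53 to 4.74 elsewhere, besides the low G2/M level, and 13 of its 21 cells had over 50 RPM of somatic markers (11.7, 58.9 and 1877 RPM as the lowest, median and highest sum). Without the cells over 50 RPM, the labelled KO minus WT P3 difference of Tmpo was -0.84 (-3.18 to 0.53). The part of cycling in the low Tmpo value was not tested.

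Emd encodes emerin, a LEM-domain protein of the inner membrane, and is X-linked (74254687 to 74261548, plus strand). Median RPM was 1.81 and 1.61 in the WT P3 sets, 0.774, 1.67 and 2.81 in the labelled KO sets, and 4.68 and 3.45 in the WT P7 sets, so both P7 sets had the highest medians. WT P7 minus WT P3 was 0.84 (0.53 to 1.14), and 0.57 (0.25 to 0.90) after rescaling to stably detected genes. Its mean level of 1.85 was below the limit of 2, so Emd is outside the counts of genes compared below. An annotated Emd transcript shares 662 bases at 96.7% identity with Eif1, and a pseudogene lies in the same locus, so how reads were divided among them is uncertain. The labelled KO difference was 0.04 (-0.72 to 0.57), and 0.39 (0.22 to 0.57) without KO set A.

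Banf1, on chromosome 19 (5364638 to 5367168, minus strand), was above 1 RPM in every cell. Its spread between cells was low, with a median SD over the 7 sets of 0.55 on the log2 scale, against 0.56 for the rarely detected Sun2, 0.76 for Lbr, 1.40 for Lmna and 1.87 for Syne2. Medians were 36.2 and 33 RPM in the WT P3 sets, 24.8, 46.8 and 49.1 in the labelled KO sets, and 49.9 and 65.0 at P7. WT P7 minus WT P3 was 0.42 (-0.04 to 0.88) and came to 0.00 when rescaled to stably detected genes. Cells labelled KO differed from WT P3 cells by 0.06 (-0.67 to 0.54), and by 0.37 (0.19 to 0.54) without KO set A. Its exons share 428 bases with Eif1ad on the opposite strand, and reads from the pair cannot be told apart unless counting used strand, which is not given in the sources used here. Lbr likewise shares 440 bases with Dnah14.

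**Figure D3:**
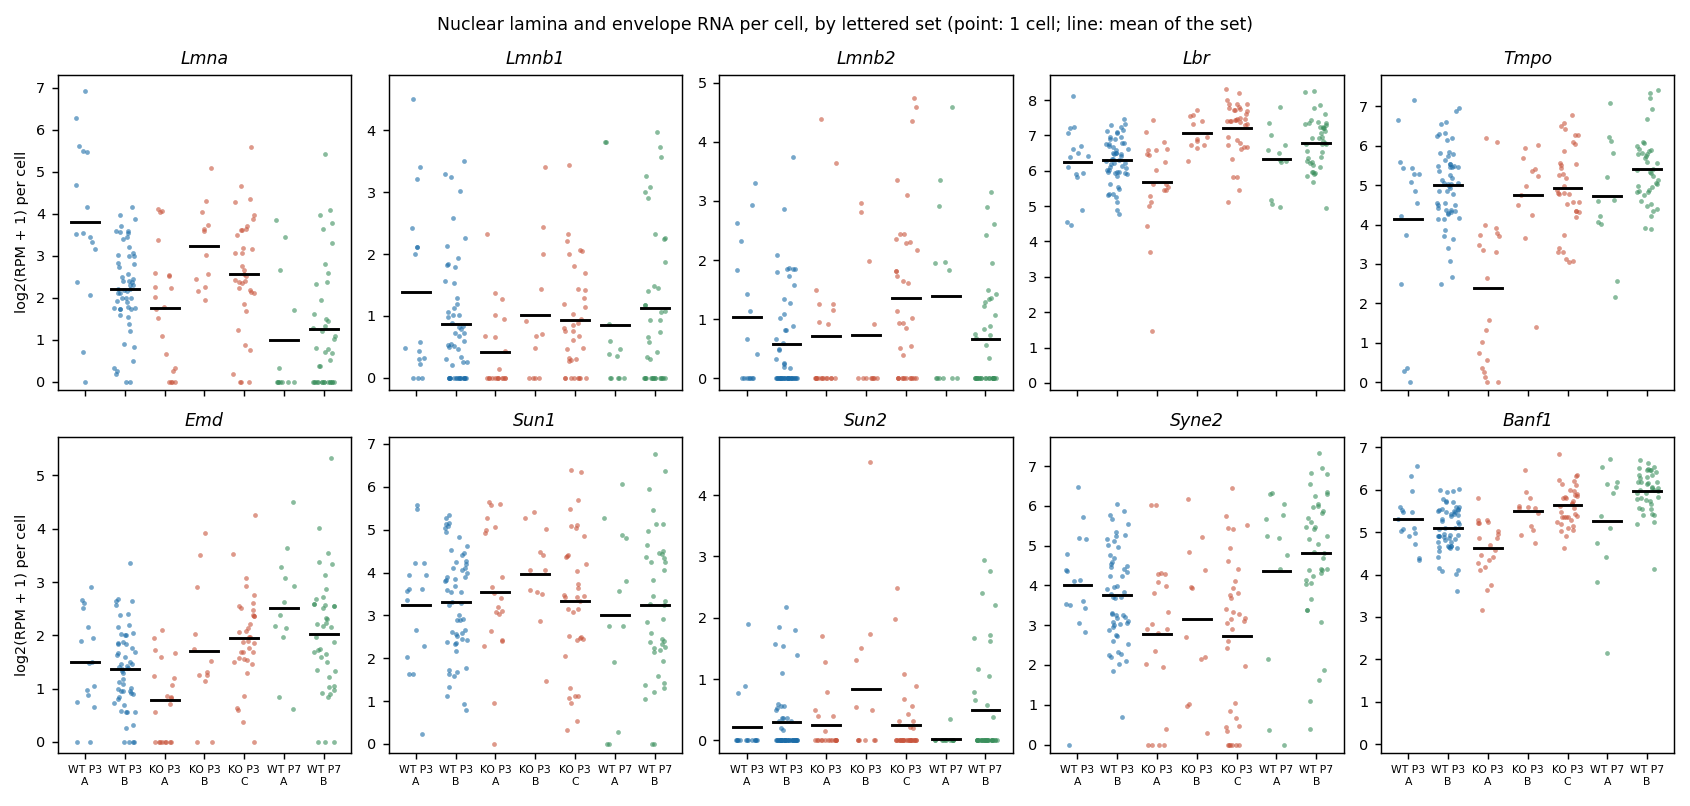
Log2(RPM + 1) of each of the 10 genes in every cell, by lettered set; a point is 1 cell and a line the mean of the set. The Lmna lines are at 1.00 and 1.24 at P7, the Tmpo line is at 2.39 in labelled KO set A, and Syne2 shows a cluster of cells near 0 in the labelled KO sets.

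The LINC bridge was represented mainly by Sun1 and Syne2. Sun1 (chromosome 5, 139200637 to 139249840, plus strand), the SUN protein that also anchors telomeres in meiotic cells, had medians of 11.1 and 10.7 RPM in the WT P3 sets, 9.58, 15.6 and 9.72 in the labelled KO sets, and 8.35 and 8.43 at P7. Labelled KO minus WT P3 was 0.34 (0.02 to 0.72), positive in all 6 pairs; rescaled to stably detected genes it was 0.19 (-0.33 to 0.52), no longer on 1 side of 0. WT P7 minus WT P3 was -0.16 (-0.31 to -0.01). It was -0.52 (-0.64 to -0.41) after rescaling to stably detected genes, but turned positive, 0.32, when RPM was averaged before taking logs. Sun2 (chromosome 15, 79724070 to 79742536, minus strand), its partner in many somatic cells, was above 1 RPM in 11.3% of WT P3, 13% of labelled KO and 17% of WT P7 cells. In WT P7 set A, where 1 cell had a read, 0 of 12 cells were above 1 RPM (exact interval 0 to 26.5%), and in labelled KO set B a single cell held 77.5% of the set's Sun2. Sun2's differences, 0.19 (-0.05 to 0.62) for the labelled KO (0.29 without KO set A) and -0.00 (-0.27 to 0.26) for P7, rest on so few reads that no order of the groups was detectable.

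Syne2 encodes nesprin-2, the giant outer membrane protein that SUN proteins hold in place, and spans 75818134 to 76110926 on the plus strand of chromosome 12. Its lowest, median and highest values were 0, 16.5 and 87.6 RPM in WT P3 set A and 0.628, 12.1 and 65.5 in set B. Labelled KO cells had 0, 6.47 and 64.1 RPM in set A, 0.232, 9.89 and 71.2 in set B, and 0, 7.77 and 85.8 in set C. All 3 labelled KO medians were below both WT P3 medians, while the highest cells of the 2 groups overlapped. WT P7 cells had 0, 36.2 and 79.4 RPM in set A and 0.303, 31.8 and 159.7 in set B, the highest medians of the 7 sets.

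The level of Syne2 was 4.02 and 3.77 in the WT P3 sets, 2.79, 3.15 and 2.72 in the labelled KO sets, and 4.35 and 4.81 in the WT P7 sets, so the sets of the 3 groups did not overlap. Labelled KO minus WT P3 was -1.01 (-1.30 to -0.62), and 35 of 4899 genes had a more negative difference. More labelled KO cells had little or no Syne2: it was above 1 RPM in 97.2% of WT P3 cells (69 of 71; 90.2 to 99.7%) and in 73.9% of labelled KO cells (51 of 69; 61.9 to 83.7%). By set the shares were 93.8% and 98.2% in WT P3 against 76.2%, 83.3% and 69.4%. Mean RPM was 14.4 against 20.3, a 1.41-fold difference, and the log2 ratio of the mean RPM was -0.47. Rescaling to stably detected genes gave -1.14 (-1.53 to -0.89), and leaving out cells with somatic markers gave -1.02. The difference fell short of 1 on the log2 scale without WT P3 set A (-0.88), without KO set A (-0.96), without KO set C (-0.93) and with thinned reads (-0.96), always with the same sign in every pair. Syne2 was below both WT P3 sets in KO set C, where Rhox10 was lower than in WT P3, and also in KO sets A and B, where it was not. With age the sign was the opposite: WT P7 minus WT P3 was 0.69 (0.33 to 1.04), and 0.33 (0.09 to 0.58) after rescaling.

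**Figure D4:**
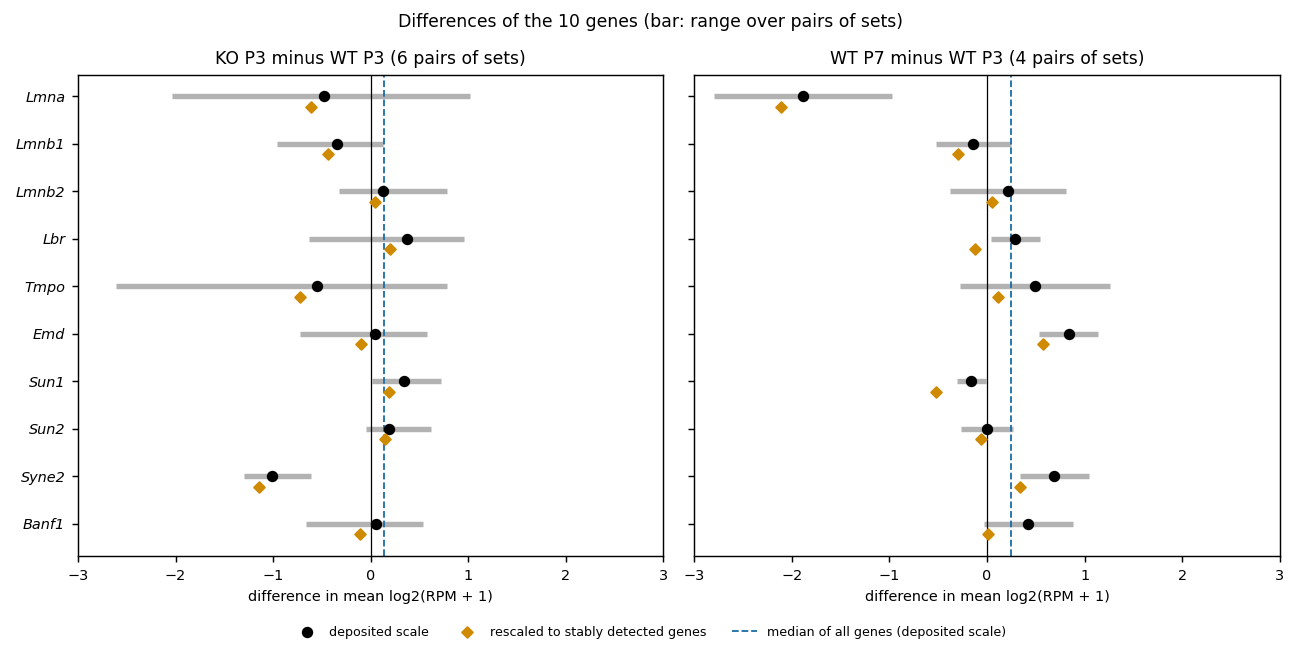
Differences in mean log2(RPM + 1) for labelled KO minus WT P3 (left) and WT P7 minus WT P3 (right); black points are the differences, bars their range over pairs of sets, diamonds the differences after rescaling, and the dashed line the median of all genes. Syne2 on the left (-1.01) and Lmna on the right (-1.88) are the 2 genes whose bars lie on 1 side of 0 with a difference of at least 1.

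Set against the whole table, 6 of the 10 genes reached a mean level of 2 in both comparisons (Lmna, Lbr, Tmpo, Sun1, Syne2 and Banf1); Lmnb1, Lmnb2, Emd and Sun2 did not. For labelled KO minus WT P3, 1 of the 6 was higher in all pairs of sets (Sun1) where 17.1% of the 4899 genes were, and 1 was lower in all pairs (Syne2) where 4.9% of genes were. A difference of at least 1 as well was reached by none upwards (1.22% of genes) and by Syne2 downwards (0.674% of genes). For WT P7 minus WT P3, Lbr and Syne2 were higher in all pairs (42% of the 4895 genes) and Lmna and Sun1 lower (13.1%). None of the 6 was higher by at least 1 (9.21% of genes), and Lmna was lower by at least 1 (2.47% of genes). The members were picked with these data known, so nothing is read from these counts beyond which genes they are. The median over all genes was 0.13 and 0.25 in the 2 comparisons, and -0.01 and -0.10 after rescaling to 2650 stably detected genes. With that rescaling, 10.6% of genes were higher and 12.2% lower in all pairs for the labelled KO, and 22.3% and 30.7% for P7. The median difference over all 10 genes was 0.05 for the labelled KO and 0.25 for P7.

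Lmna RNA yields prelamin A, which is farnesylated, clipped, methylated and then cut by Zmpste24. The list called lamin processing and sterol reductase, which is not made up of enzymes only, had 8 measured genes other than Lbr. Of these, 5 had higher P7 levels in every pair of sets and 1, Narf, was lower (-0.29). Among all genes compared, 42% were higher and 13.1% lower. Listed genes counted from a level of 0.5, but genes compared had to reach 2, here and for the lists below. The counts and shares thus rest on different limits, and no excess over the shares is read from them. With Lbr included the list had 6 higher and 1 lower of 9. Rescaled counts were 4 and 2, where 22.3% and 30.7% of all genes compared were higher and lower. The CAAX protease Rce1 was higher by 1.09 (0.87 to 1.32). Zmpste24 was higher by 0.92 (0.51 to 1.34) and the methyltransferase Icmt by 0.62 (0.54 to 0.70), and the farnesyltransferase subunit Fnta by 0.34 (0.00 to 0.68); the fifth was Nrm, by 0.56. Zmpste24, Icmt, Fnta, Nrm and Narf have mean levels under 2 and were named after their values were seen. After rescaling to stably detected genes the differences of Rce1, Zmpste24, Icmt, Nrm and Fnta were 0.84, 0.68, 0.50, 0.48 and 0.12, and that of Narf was -0.44. In labelled KO cells Icmt (0.84) and Zmpste24 (0.53) were higher in all pairs and Narf (-0.33) lower, of 7 measured. Among genes compared, which leave out Icmt, Zmpste24 and Narf, 17.1% were higher and 4.9% lower.

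Other bridge and LEM-domain genes added little. Of the LINC complex list, 1 gene besides the members was measured, Syne1 (nesprin-1), whose level was 1.30 in WT P3, 0.98 in labelled KO and 0.63 in WT P7 cells. Its P7 difference of -0.68 (-0.998 to -0.353) had the opposite sign to that of Syne2; Syne1 too was named after its values were seen. Among the 6 measured LEM-domain and BAF partner genes that are not members, 1 was higher in all pairs at P7, Vrk3, of the vaccinia-related kinase family, by 0.54 (0.35 to 0.74), and 1 in labelled KO cells, Vrk2 by 0.30, also named after its value was seen; none was lower. Of 10 measured genes of the other inner membrane and torsin list, 5 were higher at P7 and 1 lower. These counts stand beside 42% and 13.1% of all genes compared. After rescaling 3 of the list were higher and 1 lower, beside 22.3% and 30.7% of all genes compared. Tor1a, the torsin ATPase, was higher by 0.98 (0.74 to 1.23) and Tmem97 by 0.72 (0.57 to 0.86), and Tor1aip2, which encodes a torsin activator of the endoplasmic reticulum, was lower by 0.71 on the log2 scale (-0.71, -0.87 to -0.55). None of the 11 measured in the labelled KO comparison had the same sign in all pairs.

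Nuclear pore genes went in both directions at P7. Of 31 measured, 16 were higher and 4 lower in all pairs, beside 42% and 13.1% of all genes compared. The median difference was 0.41 against 0.25 over all genes compared. After rescaling the counts were 10 and 9, beside 22.3% and 30.7% of all genes compared. The rescaled median was 0.07 against -0.10 over all genes compared. Nup210, a membrane nucleoporin, was higher by 1.43 (0.87 to 1.99) and Nup43 by 1.14 (0.37 to 1.91). Nup153, the basket nucleoporin that binds lamins, had a difference of -0.93 (-1.67 to -0.18) and Nup107 of -0.88 (-1.07 to -0.70). In labelled KO cells 5 of 31 were higher and none lower, beside 17.1% and 4.9% of all genes compared. After rescaling 2 of the list were higher and 2 lower, beside 10.6% and 12.2% of all genes compared. The difference was 0.65 (0.16 to 1.15) for Nup88 and 0.52 (0.02 to 1.14) for Nup93, and its median over the list was 0.07. Of 20 nuclear transport genes, 7 were higher and 1 lower at P7, again beside 42% and 13.1% of all genes compared. The differences were 1.01 (0.46 to 1.56) for Ipo7, 0.95 (0.14 to 1.76) for Tnpo1 and -0.52 for Ipo8. After rescaling 1 gene of the list was higher and 4 were lower, beside 22.3% and 30.7% of all genes compared. In labelled KO cells 3 of 20 were higher and 1 lower, beside 17.1% and 4.9% of all genes compared. After rescaling none of the list was higher and 2 were lower, beside 10.6% and 12.2% of all genes compared. The deposited scale gave 1.10 (0.04 to 2.10) for the exportin Xpo1, 0.51 (0.19 to 0.71) for Ipo5 and -0.26 (-0.32 to -0.20) for Ipo8.

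Within sets, Lbr was the envelope gene that varied most closely with mitotic genes. Its Pearson correlation across the cells of a set with the mean level of 21 G2/M genes was positive in 7 of 7 sets, with a mean of 0.36, a range of 0.13 to 0.55, and a mean of 0.34 after rescaling. The mean Spearman correlation was 0.29. The correlation of Lbr with 21 S phase genes averaged 0.01. Tmpo had a mean of 0.17 with the G2/M genes, positive in 5 of 7 sets and -0.33 in WT P7 set A. Sun1 and Banf1 were instead positive in 7 of 7 sets with the S phase genes, with means of 0.25 and 0.33, which became 0.21 and 0.13 after rescaling. Lmna showed no such pattern, at -0.10 with G2/M and 0.16 with S phase genes. These are descriptions over the 12 to 55 cells of a set, whose depth varies. The labels do not say whether the cells of a set share a library preparation.

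**Figure D5:**
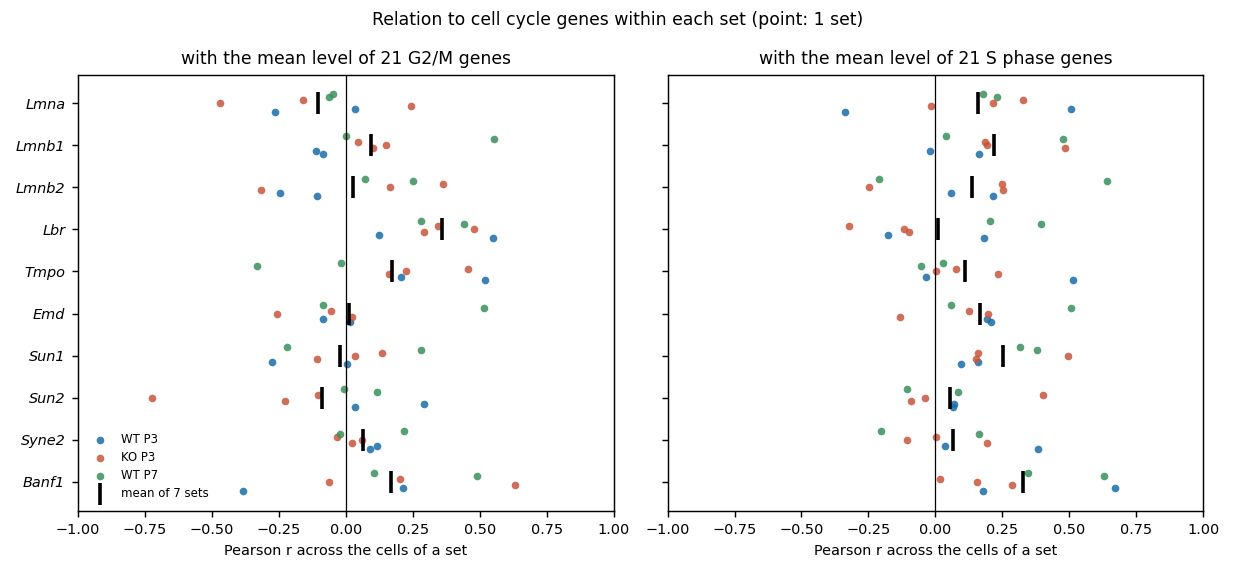
Pearson correlation across the cells of each lettered set between each envelope gene and the mean level of 21 G2/M genes (left) or 21 S phase genes (right); points are sets and black bars the mean of 7 sets. All Lbr points are above 0 on the left (0.13 to 0.55), and all Sun1 and Banf1 points are above 0 on the right.

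Averaged over the 7 sets, the correlations among the 10 genes were weak. Of the 3 lamin pairs, Lmna with Lmnb1 averaged a Pearson r of -0.05, Lmna with Lmnb2 0.01 and Lmnb1 with Lmnb2 0.05 over the 7 sets. The bridge partners Sun1 and Syne2 averaged -0.02, Emd and Banf1 0.11, and Tmpo and Banf1 0.07. The 2 highest means were 0.22, for Lmna with Banf1 (positive in 6 of 7 sets, 0.14 after rescaling) and for Lmnb2 with Sun2. Lbr and Banf1, both above 1 RPM in every cell, averaged 0.15 (positive in 6 of 7 sets, 0.11 after rescaling). Weak means such as these, many of them from sparse counts, cannot show whether the genes vary together.

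For each member the genes most alike in pattern were sought among those whose mean level reached 2, as the highest mean over 7 sets of the within-set Pearson r, and named where it reached 0.4. For Lmna these were Tmem59l (0.45, but -0.10 to 0.83 by set), Mcam (0.44, 0.26 to 0.60), which encodes an adhesion molecule of the cell surface, and Plec (0.42, 0.31 to 0.53), which encodes the cytoskeletal linker plectin. Arl6ip1 was most like Lbr (0.43, 0.21 to 0.62) and Pcbp1 most like Tmpo (0.49, 0.15 to 0.75). Banf1 was most like Eif4a3 (0.49), the ribosomal protein gene Rps15 (0.46) and the chaperonin subunit gene Cct6a (0.44), and 18 genes reached 0.4 with it. For Lmnb1, Lmnb2, Emd, Sun1, Sun2 and Syne2 no gene did; their highest means lay between 0.27 and 0.37.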

How the data were processed

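Single-cell cDNA was made on a Fluidigm C1 with a SMARTer kit and ERCC spike-ins, and libraries with Nextera XT, per the labels' protocols. STAR 2.3.0, HTSeq 0.6.1 and mm10 are listed in the submitters' processing notes. The deposited table is called TPM, but the authors' values are RPM, reads scaled to 1000000 a cell: in every cell at least 99.99% of them were whole multiples of 1 step (within 0.001 RPM), which gave back the reads. Rows summed to 8.13 to 23.0% of that total. No count test was run, since each group is 1 sample. The 10 genes, the lists and the rules were chosen with earlier results of these data known. Levels are means of log2(RPM + 1) per lettered set, sets weighted equally. A gene was compared where its mean level was at least 2 and counted where the difference was at least 1 with 1 sign in all pairs of sets; listed genes counted as measured from 0.5. Named genes are the members, the 2 highest and 2 lowest of each envelope list in all pairs, and up to 3 genes most like each member at r of 0.4 or more. Stably detected genes were above 1 RPM in 90% of cells. Annotation came from GENCODE and promoters from RefSeq, both GRCm38. Scripts used Python 3.11.15, numpy 2.4.6, pandas 2.3.3 and scipy 1.17.1 and were tested on simulated data.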

Additional observations from a re-analysis of the deposited data

How the results depend on the processing

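No member reversed a called difference under any of the alternatives run. With a pseudocount of 0.1 the Syne2 difference, labelled KO minus WT P3, was -1.48, with a pseudocount of 10 it was -0.41, and from the log2 of the mean RPM -0.47; leaving out 1 set at a time gave -1.14 to -0.88. The count of members lower by at least 1 in that comparison was 0 with a pseudocount of 10, with the log2 of the mean RPM and with thinned reads, and ran from 0 to 2 when 1 set was left out, Lmna joining Syne2 without WT P3 set B. The Lmna difference, WT P7 minus WT P3, was -3.32 with a pseudocount of 0.1 and -0.70 with a pseudocount of 10, where no member was lower by at least 1 (count 0); leaving out 1 set gave -2.68 to -1.09. With a limit of 0.5 in place of 1, 1 member, Syne2, counted as higher at P7. Of 250 recomputed member differences 217 kept their sign. No paired analysis was possible because the cell numbers in the titles pair no samples and no test was run. Low reads limit Lmnb1, Lmnb2 and Sun2 most.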
